A study of Sus scrofa with 8 samples.

Results

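The splicing factor genes described here are the mRNAs whose pig gene symbol begins with SRSF, HNRNP, SNRP, SF3A, SF3B, U2AF or PRPF. Of the 21607 mRNAs listed for the livers, 11654 had a symbol through their Ensembl identifier and 40 of these belonged to the set: 6 SRSF, 11 HNRNP, 6 SNRP, 2 SF3A, 4 SF3B and 11 PRPF genes. Another 16 symbols that fit the rule, SRSF2, HNRNPA2B1, U2AF1 and U2AF2 among them, had no row under their identifier and were not analysed here, so no U2AF gene was measured. The samples were liver pieces of 4 Yana sows that shared no ancestor over several generations, 2 young sows at 180 days after birth and 2 old sows at 8 years, with no treatment named in the labels. According to the authors, the young sows had borne no litter, whereas the old sows had bred for years and had left production. Age and breeding history therefore cannot be told apart here. Each liver gave 1 directional RNA-seq library from rRNA-depleted total RNA, and the livers are called young 1, young 2, old 1 and old 2. The question was whether the transcript levels of splicing factors differ between young and old livers.

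Splicing is carried out by the spliceosome, a machine of small nuclear ribonucleoproteins (snRNPs) that assembles anew on each intron. The Sm proteins, encoded by SNRP genes, form a ring on the RNA of the U1, U2, U4 and U5 snRNPs. The SF3A and SF3B complexes are parts of the U2 snRNP and hold it on the branch site, and several PRPF proteins build the tri-snRNP, in which U4, U6 and U5 arrive together. SR proteins (SRSF genes) bind exons and favour their inclusion, whereas many heterogeneous nuclear ribonucleoproteins (HNRNP genes) bind silencer elements and oppose it. Many SR and hnRNP genes also limit their own mRNA through alternative exons that send the transcript to nonsense-mediated decay. The liver depends on this machinery for the many alternatively spliced transcripts of hepatocyte metabolism.

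The mRNA values are CPM, reads scaled by library size: each is a whole number of reads times what 1 read was worth in that library, and gene length does not enter, so levels are compared between livers and not between genes. Reads on listed mRNAs and lncRNAs numbered 51494798 and 52207649 in the young livers, against 28324675 and 31630060 in old livers. All 40 genes were above 0 in all 4 livers, with 16 to 4959 reads per gene and liver, and 36 of them had a mean of at least 1 CPM. The livers carried their tissue's markers: the 10 measured hepatocyte genes summed to 87520 and 95770 CPM in young livers against 61760 and 65340 CPM in old livers, and none was at 0 in all livers. Most of each sum came from ALB and APOC3. Of the 10 genes, 8 had a log2 fold change below 0, HNF4A by next to nothing (-0.0004), and 2 above 0. The 7 measured macrophage and Kupffer cell genes all had a log2 fold change above 0 in old against young livers, with sums of 243 and 287 CPM against 381 and 416 CPM. Interferon-stimulated genes (14 measured) set old 1 apart, with 1922 CPM against 48.5 to 70.3 CPM in the other 3 livers. The 9 measured immediate early and heat shock genes summed to 272 and 233 CPM in the young and 388 and 484 CPM in the old livers. HSPA8 and HSP90AA1 were the largest of them in the young livers and in old 1, and both overlapped between ages. FOS had 206 CPM in old 2 against 9.95 CPM in old 1, and 8 of the 9 genes had a log2 fold change above 0. Lists for B and plasma cells, T and NK cells and endothelial cells had higher sums in both old livers than in both young livers, and the sums for stellate cells and fibroblasts, cholangiocytes and skeletal muscle overlapped between ages. The erythroid sum, 622 and 429 CPM against 308 and 407 CPM, was nearly all the globin gene HBB, and 4 of the 6 erythroid genes had a log2 fold change above 0. The part of these cell and state markers in the results below was not tested, and in whole tissue, fewer cells of a type and less RNA per cell cannot be told apart.

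In the old livers, splicing factor transcripts were on average slightly lower than in the young livers, but no gene passed the test. The summed level of the 40 genes was 406 CPM in young 1, 308 CPM in young 2, 314 CPM in old 1 and 241 CPM in old 2. Young 1 stood above the others and old 2 below them, while young 2 and old 1 were nearly level, so the sums do not separate by more than the gap between livers of the same age. The lowest fold changes belonged to PRPF39, SNRPF, SF3B6 and SF3B4, each with a young mean 2.33 to 3.19 times the old mean. The highest belonged to PRPF31, whose old mean was 2.86 times the young mean. None of the 40 genes reached an adjusted p under 0.05 with a fold change above 2 by limma on log2(CPM + 1) with Benjamini-Hochberg adjustment over the 16898 mRNAs above 0 in at least 2 livers (0% of all mRNAs tested), and the smallest adjusted p was 0.217. The edgeR exact test on whole reads, which called 3.16% of all mRNAs, called 0 of the 40 genes (smallest adjusted p = 0.213). The edgeR quasi-likelihood test, which called 0% of all mRNAs, also called 0 (smallest adjusted p = 0.294).

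**Figure D1:**
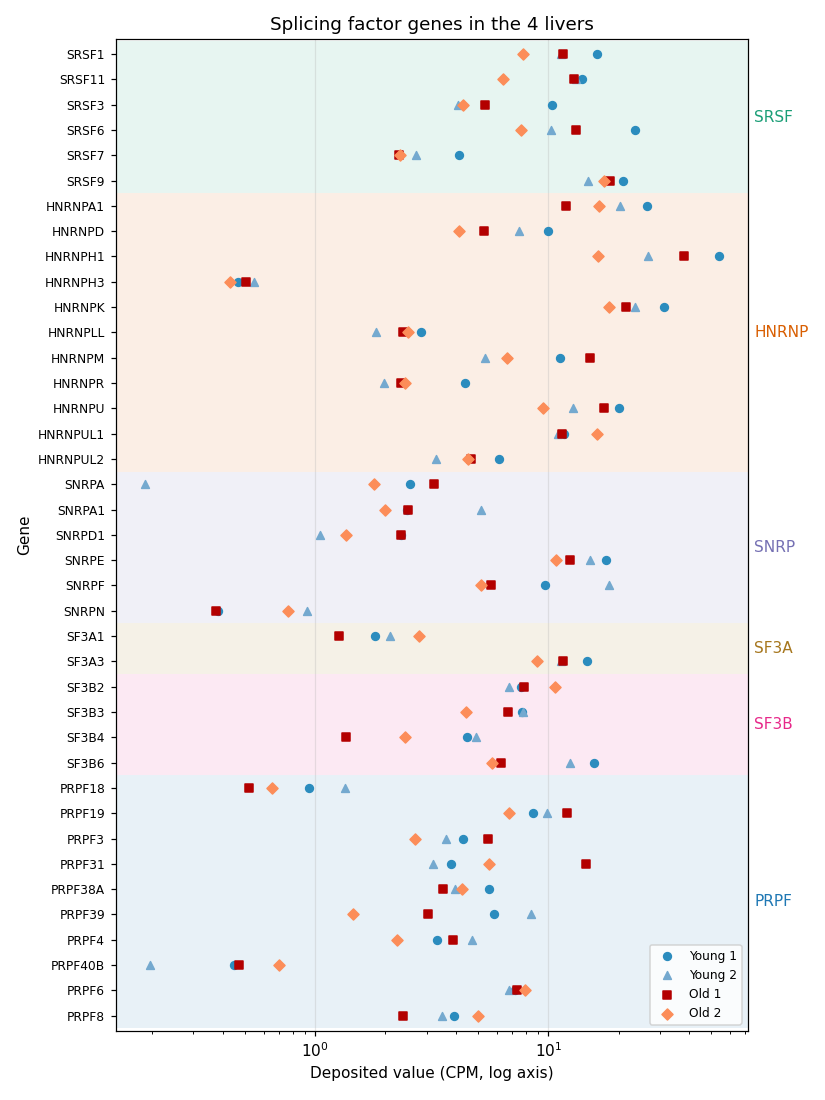
CPM of 39 splicing factor genes (rows, grouped by family) on a log axis, with 1 point for each of the 4 livers. Of the genes shown, young 1 holds the highest value of 19 and the lowest of 0, and old 2 holds the lowest value of 18.

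Without adjustment, limma gave a p under 0.05 to 5 of the 40 genes as lower in old livers (12.5%, against 8.93% of all mRNAs tested), namely HNRNPD, PRPF39, SF3B4, SF3B6 and SNRPF. All 5 had a mean of at least 1 CPM, and their share of the 36 genes at that level, 13.9%, was at the 14% of mRNAs of that level. No splicing factor gene was higher with such a p (0, against 6.78% of all mRNAs and 7.69% of those of at least 1 CPM). Both old livers lay below both young livers for 13 of the 40 genes (32.5%, against 25% of all mRNAs) and above them for 4 (10%, against 24.4%). Among mRNAs with a mean of at least 1 CPM, where the background itself leans downwards, the shares were 12 of 36 below (33.3%, against 32.9%) and 3 of 36 above (8.33%, against 17.8%). The share of genes lying below was therefore near that of other mRNAs of measurable level, and the share lying above was smaller than the background. An exact permutation test of a single gene cannot go below p = 0.333 with 2 livers against 2, so lack of overlap carries no more weight than that.

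The scale of the values bears on these directions. The listed mRNAs summed to 408899 and 428910 CPM in the young livers and only 365330 and 346173 CPM in the old livers, and the median log2 fold change of all mRNAs with a mean of at least 1 CPM was -0.15. Rescaling with trimmed mean of M-values (TMM) factors moved that median by 0.15, to 0.00078. As deposited, 29 splicing factor genes had a log2 fold change below 0 and 11 above (72.5% below, against 60% of mRNAs of at least 1 CPM), and after TMM scaling the split was 23 below and 17 above. After TMM scaling, both old livers lay below both young livers for 10 of the 40 genes (25%, against 18.9% of all mRNAs) and above them for 5 (12.5%, against 29.3%). For genes of at least 1 CPM these shares were 9 of 36 below (25%, against 24.4%) and 4 of 36 above (11.1%, against 23.7%), so the share below was again at the background. The median log2 fold change of the 40 genes was -0.30 as deposited and -0.12 after TMM scaling, which is 0.15 and 0.12 lower than the median of mRNAs of at least 1 CPM on the same scale.

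**Figure D2:**
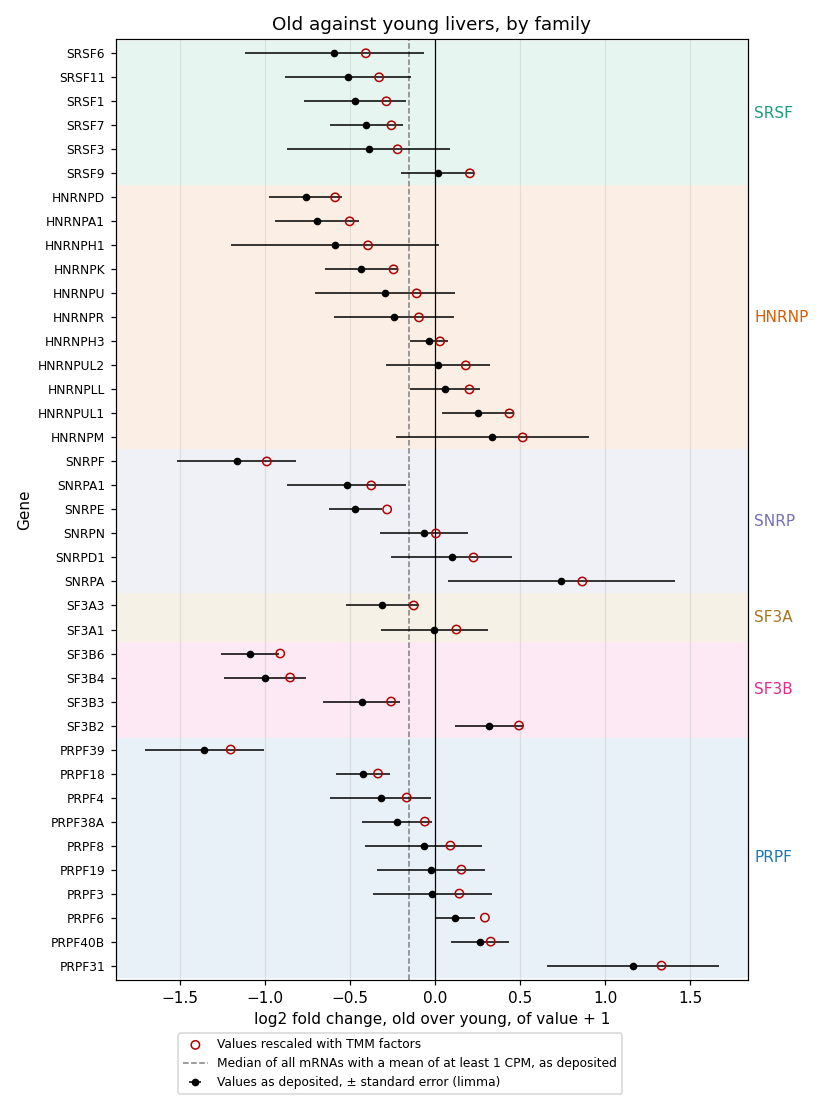
Log2 fold change (old over young, of CPM + 1) of 39 genes by family, as deposited with its standard error (black) and after TMM scaling (red circles). The dashed line is the median of all mRNAs with a mean of at least 1 CPM, at -0.15, and TMM scaling moves every gene to the right of its deposited value.

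Of the 6 SR protein genes, 5 had a log2 fold change below 0 and SRSF9 lay near 0, and 0 of the 6 reached an unadjusted p under 0.05. Their median log2 fold change was -0.44 as deposited and -0.27 after TMM scaling. SRSF6, an SR protein that binds exonic enhancers, had 23.4 and 10.3 CPM in young livers against 13.1 and 7.60 CPM in old livers. Young 1 alone was high, and the groups overlapped (log2 fold change = -0.59, SE 0.53, limma adjusted p = 0.664). Without young 1, the log2 fold change of SRSF6 was -0.04. SRSF9 had 21.0 and 14.8 CPM against 18.3 and 17.4 CPM, with both old livers between the young ones (log2 fold change = 0.01, SE 0.21). Its difference was 0.20 after TMM scaling and turned below 0 without young 2 or without old 1. SRSF11, an SR-related protein, had 13.9 and 13.1 CPM in the young and 12.9 and 6.42 CPM in the old livers. Both old values of SRSF11 lay below the young ones, but old 1 by little, and the log2 fold change of -0.51 (SE 0.37, limma adjusted p = 0.593) was -0.06 without old 2.

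The founding SR protein gene SRSF1 had 16.2 and 11.3 CPM in young livers against 11.6 and 7.77 CPM in old livers (log2 fold change = -0.47, SE 0.30). SRSF3, which couples splicing to mRNA export together with SRSF7, had 10.4 CPM in young 1 and 4.08, 5.33 and 4.30 CPM in young 2, old 1 and old 2. Its lower average in old livers thus came with 1 high young liver (log2 fold change = -0.39, SE 0.48). SRSF7 had 4.14 and 2.70 CPM against 2.27 and 2.31 CPM, the old livers being alike and below both young ones (log2 fold change = -0.41, SE 0.21, limma unadjusted p = 0.146). All 6 SR genes were highest in young 1, and 3 of the 6 were lowest in old 2.

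Of the 11 hnRNP genes, 7 had a log2 fold change below 0 in old against young livers and 4 above 0, and after TMM scaling the split was 6 and 5. The median log2 fold change of the family was -0.24 as deposited and -0.10 after TMM scaling, and without young 1 it was 0.01. HNRNPD, also known as AUF1, which binds AU-rich elements and directs mRNA decay, had 9.995 and 7.498 CPM in young livers against 5.31 and 4.15 CPM in old livers. The old values lay below the young ones (log2 fold change = -0.76, SE 0.21, limma unadjusted p = 0.0331, adjusted p = 0.279). HNRNPD kept an unadjusted p under 0.05 in 4 of the 15 alternative analyses, and after TMM scaling that p was 0.0541. HNRNPA1, the classical antagonist of SR proteins at exons, had 26.6 and 20.4 CPM against 11.9 and 16.5 CPM, also without overlap (log2 fold change = -0.69, SE 0.25, limma unadjusted p = 0.0615). HNRNPK, a poly(C)-binding protein, had 31.4 and 23.5 CPM in the young and 21.6 and 18.2 CPM in the old livers. Its groups did not overlap as deposited but did after TMM scaling (log2 fold change = -0.44, SE 0.21, limma adjusted p = 0.443).

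HNRNPH1, which binds runs of G in exons and introns, differed widely between livers of the same age. It had 54.0 CPM in young 1, 26.8 CPM in young 2, 38.1 CPM in old 1 and 16.3 CPM in old 2. The first liver of each age was thus more than 2 times the other, and the log2 fold change of -0.59 (SE 0.61, limma adjusted p = 0.709) was -0.00107 without old 2 and -0.10 without young 1. HNRNPM and HNRNPU had the same shape, and the sign of both turned when 1 liver was left out. HNRNPM, which represses or activates exons through GU-rich sites, had 11.2 and 5.34 CPM against 15.1 and 6.67 CPM (log2 fold change = 0.34, SE 0.57, and -0.20 without old 1). HNRNPU, a scaffold attachment factor, had 20.1 and 12.8 CPM against 17.4 and 9.49 CPM (log2 fold change = -0.30, SE 0.41, and 0.11 without old 2). Reads of HNRNPH1 may be shared with its close paralog HNRNPH2, which was not analysed here, and those of HNRNPA1 with its processed pseudogenes.

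HNRNPUL1, a relative of HNRNPU, had the smallest p among the hnRNP genes with a log2 fold change above 0. It had 11.7 and 10.98 CPM in young livers against 11.5 and 16.2 CPM in old livers, with old 2 alone standing above (log2 fold change = 0.25, SE 0.21, limma adjusted p = 0.648). Without old 2 its log2 fold change was 0.02, and after TMM scaling both old livers lay above both young ones, at 0.44. HNRNPUL2 had 6.14 and 3.30 CPM against 4.66 and 4.54 CPM, and HNRNPLL, known for CD45 exon skipping in lymphocytes, had 2.85 and 1.82 CPM against 2.37 and 2.51 CPM. In both genes the old livers lay between the young ones, with log2 fold changes of 0.01 and 0.06. HNRNPR was high in young 1 alone, at 4.40 CPM against 1.98, 2.34 and 2.44 CPM in young 2, old 1 and old 2. HNRNPH3 was low in every liver, at 0.468 and 0.543 CPM in the young and 0.504 and 0.432 CPM in the old livers.

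The SNRP genes encode the Sm ring and other snRNP proteins, and 4 of the 6 had a log2 fold change below 0 and 2 above 0. After TMM scaling the split was 3 and 3, and the median log2 fold change was -0.27 as deposited and -0.14 after TMM scaling. SNRPF, the Sm protein F, had 9.71 and 18.3 CPM in young livers against 5.67 and 5.14 CPM in old livers. The old livers were alike and lay below both young ones, which differed by 1.88 times (log2 fold change = -1.17, SE 0.35, limma unadjusted p = 0.0399, adjusted p = 0.294). Without young 2, which held the highest value, the log2 fold change of SNRPF was -0.74, and without young 1 it was -1.59. SNRPE, the Sm protein E that sits beside F in the ring, had 17.7 and 15.1 CPM against 12.4 and 10.7 CPM, again without overlap (log2 fold change = -0.47, SE 0.15, limma unadjusted p = 0.0505). The third measured partner of the ring, SNRPD1, showed no such separation, with 2.34 and 1.05 CPM in the young and 2.34 and 1.35 CPM in the old livers (log2 fold change = 0.10, SE 0.36).

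The remaining SNRP genes overlapped between ages. SNRPA, a protein of the U1 snRNP, had 2.54 CPM in young 1 but 0.185 CPM, or 16 reads, in young 2, against 3.22 and 1.78 CPM in the old livers. Young 2 was the lowest by far, a 13.7 times gap between livers of the same age, and the log2 fold change of 0.74 (SE 0.67) was -0.05 without it. SNRPA1, a protein of the U2 snRNP, was high in young 2 alone, with 2.48 and 5.16 CPM against 2.49 and 1.99 CPM. SNRPN, an imprinted gene that stands in for SNRPB in brain, was low in every liver, at 0.381 and 0.924 CPM against 0.374 and 0.766 CPM. Reads of SNRPN and SNRPE may be shared with near-identical copies elsewhere in the genome.

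Among the U2 snRNP factors, the SF3B genes had the lowest family median, and both of the smallest p-values of all 40 genes (SF3B6 and SF3B4) were theirs. The median log2 fold change of the 4 SF3B genes was -0.72 as deposited and -0.56 after TMM scaling, and their old and young values did not overlap in any of the 4 genes as deposited, as for 50.7% of all mRNAs of at least 1 CPM. SF3B6, also called p14, which lies against the branch point adenosine, had 15.7 and 12.3 CPM in young livers against 6.26 and 5.74 CPM in old livers. Both young livers lay well above both old ones, with a young mean of 13.99 ± 2.35 CPM against 5.996 ± 0.368 CPM (SD, n = 2 each, log2 fold change = -1.09, SE 0.17, limma unadjusted p = 0.00594, adjusted p = 0.217). SF3B6 kept an unadjusted p under 0.05 in 14 of the 15 alternative analyses, the exception being the edgeR exact test (p = 0.0538, adjusted p = 0.398). Leaving out 1 liver at a time gave log2 fold changes of -1.25 to -0.93 for SF3B6.

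SF3B4, which binds the intron just upstream of the branch site, had 4.46 and 4.89 CPM in young livers against 1.35 and 2.42 CPM in old livers. The young livers were close to each other and above both old ones (log2 fold change = -1.0, SE 0.24, limma unadjusted p = 0.0217, adjusted p = 0.255), and the unadjusted p stayed under 0.05 in 9 of the 15 alternatives. SF3B3, a scaffold of the complex, had 7.68 and 7.76 CPM against 6.71 and 4.41 CPM (log2 fold change = -0.43, SE 0.23, limma adjusted p = 0.472), and its groups overlapped after TMM scaling. SF3B2, the direct binding partner of SF3B4, went the other way, with 7.60 and 6.76 CPM in the young and 7.83 and 10.7 CPM in the old livers. Old 1 lay just above young 1, and the log2 fold change of 0.32 (SE 0.20, limma adjusted p = 0.545) was 0.11 without old 2 and 0.52 without old 1. The subunits of the complex were thus not on the same side, 3 being lower and 1 higher on average under both the deposited and the TMM scale.

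The SF3A genes showed no separation. SF3A3 had 14.6 and 11.3 CPM in young livers against 11.5 and 8.98 CPM in old livers (log2 fold change = -0.31, SE 0.21, limma adjusted p = 0.575). SF3A1 had 1.80 and 2.09 CPM against 1.27 and 2.78 CPM, with the old livers on either side of the young ones. Its log2 fold change of -0.01 (SE 0.31) was 0.12 after TMM scaling, so its direction depends on the scale.

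**Figure D3:**
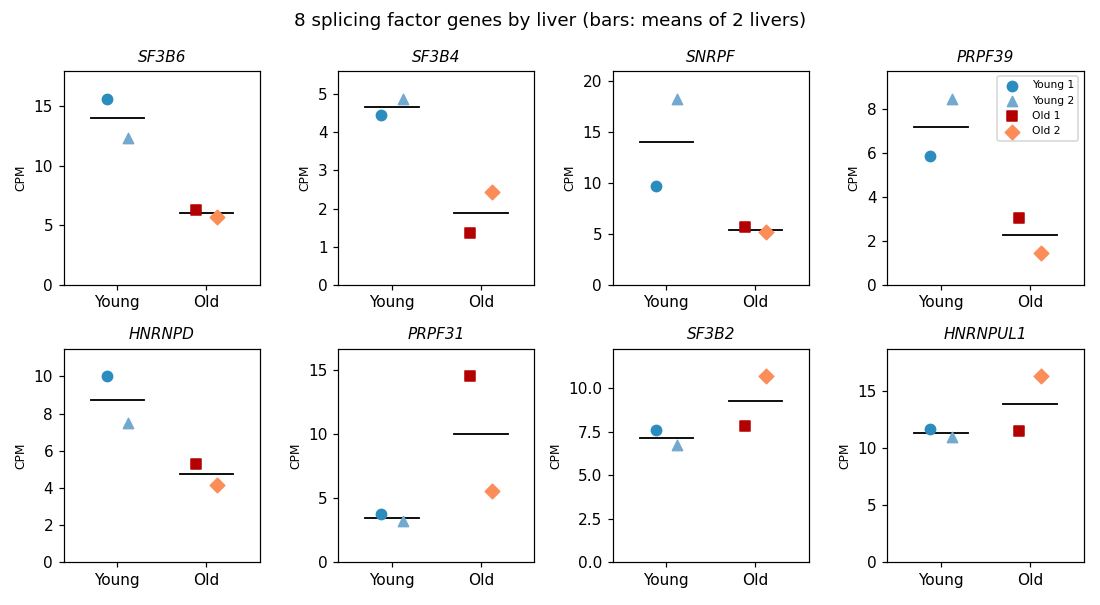
CPM of 8 splicing factor genes in each liver (points), with the mean of each age as a bar. In SF3B6, SF3B4, SNRPF, PRPF39 and HNRNPD both old livers lie below both young livers, in PRPF31 and SF3B2 both lie above, and in HNRNPUL1 old 1 lies between the young livers.

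The PRPF genes were the family with the widest range, from -1.36 to 1.17 on the log2 scale. Of the 11 genes, 3 lay below in both old livers (25% of all mRNAs), 3 above (24.4%) and 5 overlapped, which is near the background, and the family median was -0.07 as deposited and 0.09 after TMM scaling. PRPF39, a U1 snRNP-associated alternative splicing factor, had 5.87 and 8.46 CPM in young livers against 3.04 and 1.45 CPM in old livers. Its groups did not overlap (log2 fold change = -1.36, SE 0.35, limma unadjusted p = 0.0265, adjusted p = 0.267), and the unadjusted p stayed under 0.05 in 10 of the 15 alternatives. PRPF31, which holds the U4 and U6 snRNPs in the tri-snRNP, had 3.81 and 3.20 CPM in young livers against 14.5 and 5.54 CPM in old livers. Both old livers lay above, old 1 by far the most (log2 fold change = 1.17, SE 0.51, limma unadjusted p = 0.0975, adjusted p = 0.404). Without old 1, the liver with the high interferon-stimulated genes, the log2 fold change of PRPF31 was 0.54 (limma unadjusted p = 0.125), and without old 2 it was 1.79 (unadjusted p = 0.00667). The edgeR exact test on whole reads gave PRPF31 a log2 fold change of 1.72 (unadjusted p = 0.0170, adjusted p = 0.213).

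The other tri-snRNP genes of this family had smaller fold changes. PRPF6, which bridges U5 with U4 and U6, was the steadiest member, with 7.16 and 6.77 CPM in the young and 7.33 and 7.95 CPM in the old livers. Both old values lay above, but by little (log2 fold change = 0.12, SE 0.12, limma adjusted p = 0.703). PRPF8, the scaffold of the catalytic core, had 3.94 and 3.51 CPM against 2.39 and 5.00 CPM, with the old livers on either side. PRPF3 had 4.29 and 3.64 CPM against 5.53 and 2.67 CPM, and its partner PRPF4 had 3.33 and 4.70 CPM against 3.88 and 2.24 CPM. PRPF38A, which joins as the spliceosome is activated, had 5.56 and 3.96 CPM against 3.54 and 4.26 CPM. The log2 fold changes of PRPF8, PRPF3, PRPF4 and PRPF38A were -0.07, -0.02, -0.32 and -0.22 as deposited, and those of PRPF8 and PRPF3 were above 0 after TMM scaling, at 0.09 and 0.14.

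PRPF19, the ubiquitin ligase at the centre of the Prp19 complex, had 8.59 and 9.89 CPM in young livers against 11.98 and 6.77 CPM in old livers. The old livers lay on either side of the young ones, and the log2 fold change of -0.03 (SE 0.32, limma adjusted p = 0.980) was 0.15 after TMM scaling. PRPF40B, a U1-associated protein, was low, with 0.446 and 0.196 CPM against 0.471 and 0.696 CPM, and lay above in both old livers (log2 fold change = 0.26, SE 0.17). PRPF18, a factor of the second catalytic step, had 0.936 and 1.34 CPM against 0.520 and 0.654 CPM, below in both old livers (log2 fold change = -0.42, SE 0.16, limma adjusted p = 0.355).

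Gaps between 2 single livers of the same age were similar in size to the differences between the age means. Even without an age effect, a gap between single livers is expected to be larger than one between means of 2 livers. These sizes therefore do not weigh age against the spread between animals, and are given beside those of all mRNAs. The median size of the log2 gap was 0.38 between the young livers and 0.39 between the old livers, against 0.36 between the means of the age groups. Over all mRNAs of at least 1 CPM these sizes were 0.34, 0.40 and 0.44. For 24 of the 40 genes the young livers differed from each other by more than the ages did (43.7% of mRNAs of at least 1 CPM), and for 21 the old livers did (47.4%). All 6 SR genes had at least 1 same-age gap larger than the age difference, as did 8 of 11 hnRNP genes and 2 of 4 SF3B genes. This held for 29 of all 40 genes, and the share over all mRNAs was not taken.

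The same-age gaps leaned in 1 direction. Young 1 exceeded young 2 in 29 of the 40 genes, including all 6 SR genes and 10 of 11 hnRNP genes, and old 1 exceeded old 2 in 26. Among the 9790 mRNAs of at least 1 CPM, young 1 was the higher in 5302 and old 1 in 4928. In 19 genes, 5 of them SR genes, the first liver of each age was the higher of the pair (30.4% of mRNAs of at least 1 CPM). Young 1 held the highest value of 20 of the 40 genes (50%, against 31.4% of mRNAs of at least 1 CPM), among them 8 of 11 hnRNP genes, and it held the lowest value of 0. Old 2 held the lowest value of 19 genes (47.5%, against 28.2%). The difference between ages therefore rests in part on these livers. For the 40 genes the median log2 fold change was -0.09 without young 1 and -0.19 without old 2, against -0.39 without young 2 and -0.41 without old 1. Over mRNAs of at least 1 CPM the medians were -0.11, -0.15, -0.19 and -0.18 in the same order. Without young 1, the median of the 40 genes thus did not lie below that of other mRNAs. The SF3B median moved little, from -0.71 to -0.61, whichever liver was left out, whereas the SRSF median ranged from -0.68 to -0.10.

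**Figure D4:**
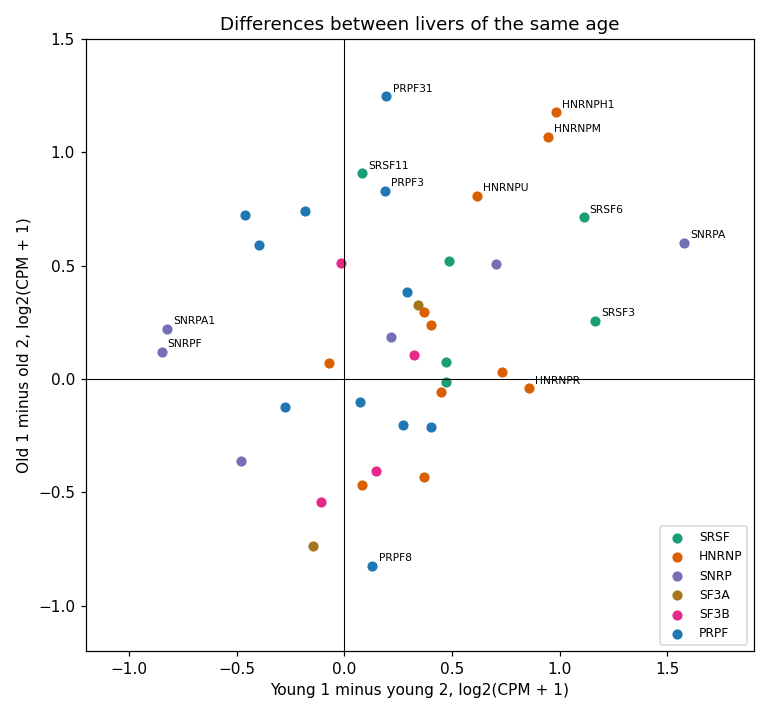
For each of the 40 genes, the log2(CPM + 1) difference between young 1 and young 2 (horizontal) against that between old 1 and old 2 (vertical), coloured by family. Most genes lie right of 0, where young 1 was higher, and 19 lie in the upper right, where the first liver of both ages was higher.

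The other genes of the splicing pathway, 105 tested mRNAs in 8 lists drawn up by function, also held no called gene. The thresholds were passed by 0 of them with limma and 0 with the edgeR exact test, 10 had an unadjusted limma p under 0.05 as lower in old livers (9.52%, against 8.93% of all mRNAs) and 4 as higher (3.81%, against 6.78%), and both old livers lay below both young livers for 29 (27.6%, against 25%) and above them for 12 (11.4%, against 24.4%). Of the 88 with a mean of at least 1 CPM, 11.4% had such a p as lower (against 14%) and 30.7% lay below (against 32.9%). Their median log2 fold change was -0.15 as deposited, close to that of mRNAs of at least 1 CPM, and -0.01 after TMM scaling. In the list of 13 U snRNP and tri-snRNP proteins, 3 genes had an unadjusted p under 0.05 as lower and 0 as higher, although the list median was -0.02 as deposited and 0.12 after TMM scaling. SNRNP27, a tri-snRNP protein, had 19.0 and 19.2 CPM in young livers against 10.3 and 11.2 CPM in old livers. Livers of the same age were close and the ages well apart (log2 fold change = -0.77, SE 0.12, limma unadjusted p = 0.00518, adjusted p = 0.213).

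The LSm proteins form a ring on the U6 snRNA as the Sm proteins do on the other snRNAs, and 2 of the 4 measured LSm genes had a small p in opposite directions. LSM7 had 20.1 and 20.4 CPM in young livers against 36.6 and 41.1 CPM in old livers (log2 fold change = 0.90, SE 0.12, limma unadjusted p = 0.00406, adjusted p = 0.213). LSM5 had 9.43 and 7.68 CPM in young livers against 1.89 and 3.05 CPM in old livers (log2 fold change = -1.48, SE 0.24, limma unadjusted p = 0.00692, adjusted p = 0.217). Both genes kept their direction whichever liver was left out, and neither passed the adjusted threshold.

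In the list of 13 spliceosomal helicases and disassembly factors, 1 gene had an unadjusted p under 0.05 as higher and 2 as lower. DHX16, an RNA helicase that acts before the first catalytic step, was the higher one, with 1.19 and 1.36 CPM against 2.13 and 2.38 CPM (log2 fold change = 0.52, SE 0.12, limma adjusted p = 0.255). Of 14 branch site and Prp19 complex factors, 1 was higher and 2 were lower at that level. XAB2, a partner of the Prp19 complex, had 3.65 and 3.15 CPM in the young and 6.55 and 5.90 CPM in the old livers (log2 fold change = 0.72, SE 0.13, limma adjusted p = 0.228). The 9 SR kinases and phosphatases held 0 genes with an unadjusted p under 0.05 in either direction and had a median of -0.09 as deposited and 0.07 after TMM scaling. PPP1CA, a catalytic subunit of protein phosphatase 1, had 19.7 and 21.5 CPM against 15.2 and 18.2 CPM (log2 fold change = -0.29, SE 0.15, limma adjusted p = 0.468).

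Of 15 SR-related and exon junction proteins, 1 had an unadjusted p under 0.05, the U1-associated protein LUC7L2. It had 13.2 and 12.3 CPM in the young and 7.91 and 9.11 CPM in the old livers (log2 fold change = -0.53, SE 0.13, limma adjusted p = 0.263). Of 30 other RNA-binding regulators of splicing, 1 was higher and 1 lower at that level. KHSRP, which binds AU-rich elements and intronic enhancers, had 1.83 and 1.05 CPM against 4.03 and 3.65 CPM (log2 fold change = 1.005, SE 0.22, limma adjusted p = 0.242). The 7 nonsense-mediated decay factors held 0 genes with an unadjusted p under 0.05 and had a median of -0.18 as deposited and -0.02 after TMM scaling. SMG5, with the smallest p among those of at least 1 CPM, had 4.44 and 4.42 CPM in young livers against 4.75 and 3.01 CPM in old livers (limma adjusted p = 0.764).

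**Figure D5:**
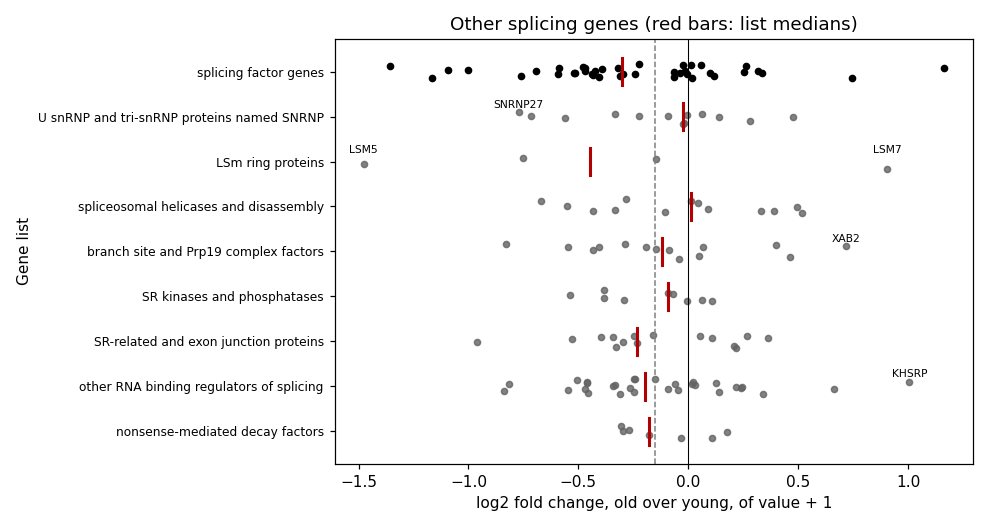
Log2 fold change (old over young, of CPM + 1) of the 40 splicing factor genes (black) and of the other splicing genes by list (grey), with list medians as red bars. The dashed line is the median of all mRNAs with a mean of at least 1 CPM, at -0.15, and genes of every list lie on both sides of 0.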

How the data were processed

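RNA-seq of total RNA was made from 4 sow livers, 1 library each. The deposited mRNA and lncRNA values, which the authors name TPM, came from reads aligned to Sscrofa10.2 with TopHat2 2.0.14, assembled with StringTie 1.2.3 and quantified with Salmon 0.6.0. Of the mRNA values above 0, 100% were whole multiples (within 0.1 read) of 1 step per library, so the deposited values were taken as CPM. The total they were scaled to is not given in the sources used here. Reads on lncRNAs were recovered with the step of the mRNA values, and no such share is given for them. Whether counting used strand was not given in the sources used here. Replicates were separate, unrelated animals and were not pooled. No batch is named in the labels. 0 columns of per-sample values of other samples were found.

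Symbols were matched through Ensembl identifiers. Differences were fitted with limma 3.58.1 (R 4.3.3) on log2(CPM + 1), which understates the change of low genes, over mRNAs above 0 in 2 or more libraries, and Benjamini-Hochberg adjustment covered all of them. A call needed an adjusted p under 0.05 and a log2 fold change beyond 1 in size. The exact and quasi-likelihood tests of edgeR 4.0.16 were run on the recovered whole reads, and DESeq2 1.42.0 gave size factors. The fits were also run on simulated counts with changes larger than any in these genes, which does not show what size of change could be called here. In 15 alternatives the pseudocount, filter, scaling, variance trend, test and replicate block were varied and each library was left out. The p-values rest on the spread between 2 animals per age, which limma and edgeR adjust for each gene with that of the other mRNAs.

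The splicing factor genes are described by family, and 1 gene is counted but not reported here by itself. Full statistics go by rule to the 2 highest genes of each family, the largest non-overlapping change per family and direction, and the 3 smallest p-values per direction, for genes of at least 1 CPM in the last 2 parts, and to the smallest p in each other list. LSM5 and the further values given for other genes were chosen after their values were seen. The genes, the rule and the lists were chosen with earlier results of these data known. The miRNA and circRNA tables were not used here, so circRNAs of splicing factor genes, and sequences, were not analysed here.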

Additional observations from a re-analysis of the deposited data

How the results depend on the processing

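No splicing factor gene was called under any alternative that kept all 4 livers, whose smallest adjusted p was 0.213. Of these, the edgeR exact test called 534 of 16898 mRNAs and the filter at a mean of at least 1 CPM called 2 of 9798. The others called 0 mRNAs of any kind, so the lack of calls there is not particular to splicing factor genes. Over all 15 alternatives, 25 of the 40 genes kept their direction in every alternative that gave a value. Direction turned in at least 1 alternative for the other 15, namely HNRNPH3, HNRNPLL, HNRNPM, HNRNPR, HNRNPU, HNRNPUL2, PRPF19, PRPF3, PRPF8, SF3A1, SNRPA, SNRPD1, SNRPN, SRSF3 and SRSF9. The number with an unadjusted p under 0.05 as lower in old livers was 5, and became 1 with the edgeR exact test, 3 with the quasi-likelihood test, 3 with no filter on low values, 3 with TMM factors, 2 with values rescaled to equal mRNA sums and 2 to 6 without 1 liver. The number higher was 0, and became 1 with the exact and with the quasi-likelihood test and 0 to 1 without 1 liver. Genes without overlap numbered 13 below and 4 above, and 7 below when rescaled to equal mRNA sums. Without 1 liver they numbered 17 to 25 below and 4 to 13 above, since a lone liver separates more easily. The share of all mRNAs was not taken for these counts when rescaled to equal mRNA sums or without 1 liver. Nor was it taken for the counts of an unadjusted p under the alternatives. Whether these counts moved more than those of other mRNAs was not tested. The median of all 40 genes was -0.090 when rescaled to equal mRNA sums and -0.41 to -0.0875 without 1 liver, the weakest without young 1. The SF3A median, -0.16, was 0.062 with both edgeR tests, 0.038 when rescaled to equal mRNA sums, -0.019 with DESeq2 size factors and -0.00056 with TMM factors, and the SF3B median was -0.56 with TMM factors. The PRPF median, -0.07, was 0.19 with both edgeR tests, 0.13 when rescaled to equal mRNA sums, 0.071 with DESeq2 size factors, 0.090 with TMM factors and -0.36 to -0.022 without 1 liver. These scalings raise every old value against the young ones, with the median mRNA of at least 1 CPM moving by 0.13 to 0.19. Among the genes with full statistics that turned, PRPF19 was at 0.22 with both edgeR tests, 0.20 with equal mRNA sums, 0.13 with DESeq2 and 0.15 with TMM factors, and -0.40 to 0.34 without 1 liver. SF3A1 was at 0.26, 0.18, 0.11 and 0.12 under the same alternatives and -0.37 to 0.36 without 1 liver, and SRSF9 was at -0.22 to 0.25 without 1 liver. Without 1 liver the lone liver of its age was assumed to vary like the other age. The replicate number as a block left 4 genes with an unadjusted p under 0.05 as lower and the median of all genes at -0.30. The numbers mark unrelated animals, and with 2 pairs (correlation of the differences between livers of an age, 0.103) pairing could not be shown. With 2 livers per age, the main test called 0 of 16898 mRNAs. Even SF3B6, at a log2 fold change of -1.09 and well above 1 CPM, had a limma adjusted p of 0.217. Changes of more than 2 times in well-measured genes could therefore go uncalled. With fewer reads in the old than in the young libraries, small differences in genes under 1 CPM were not detectable either.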
